A study of Mus musculus with 8 samples.

Results

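The genes described here carry bone morphogenetic protein (BMP) and transforming growth factor beta (TGF-beta) signals through cumulus cells, the somatic layer packed around each oocyte. They are the receptors Bmpr1a, Bmpr1b and Bmpr2, the signal mediators Smad1 and Smad3, the inhibitory Smad6 and Smad7, and the Id genes Id1, Id2 and Id3. Every probe set whose single annotated gene symbol was exactly one of these was taken, with none left out by level or response. The genes themselves were chosen with earlier results of these data known. This gave 11 probe sets for the 10 genes, out of 12422 tested probe sets, of which 10833 carried 1 symbol and stood for 8251 genes. Smad1 was the gene with more than 1 probe set.

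Cumulus cells were from female C57Bl/6 mice aged 3 to 4 weeks that had all received 5 IU of PMSG (pregnant mare serum gonadotropin, which drives follicle growth). The EP2KO group was Ptger2-/- and lacked the prostaglandin E2 receptor EP2, and the WT group was wild type. Cells were taken 48 h after PMSG with no hCG (0 h), or 3, 9 and 14 h after 5 IU of hCG (human chorionic gonadotropin), which triggers cumulus expansion and ovulation. Each genotype had 1 Affymetrix MG_U74Av2 array at each of the 4 times, so there were 8 arrays. Cells of 0, 3 and 9 h came from punctured ovarian follicles, whereas those of 14 h came from ovulated complexes in the oviduct and were freed with hyaluronidase. Stage and way of collection at 14 h cannot be told apart. The labels do not say how many mice were pooled for an array.

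BMP ligands bind a type 2 receptor such as BMPR2 together with a type 1 receptor such as BMPR1A or BMPR1B, which phosphorylates SMAD1. GDF9 and TGF-beta act through other type 1 receptors that phosphorylate SMAD2 and SMAD3. SMAD4 joins either kind in the nucleus, SMAD6 and SMAD7 block the receptors, and the Id genes are classical BMP targets. Id proteins bind E proteins, which are basic helix-loop-helix transcription factors, and keep them from DNA. In the follicle, GDF9 and BMP15 from the oocyte act on cumulus cells through BMPR2 and prepare them for expansion.

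Id3 and Id2 moved furthest of these genes by 14 h, in opposite directions, and their proximal promoters are shown to set their sequences side by side. Each line gives the 250 bases upstream of the annotated start, from RefSeq on GRCm38.p6. In Id3, at chr4:136143572-136143821 on the plus strand, capitals mark CGTCA, which is the cAMP response half-site TGACG read on the other strand, and the SMAD box CAGAC in either orientation. In Id2, at chr12:25096093-25096342 on the minus strand, capitals mark GGCGCC, the palindrome that BMP-activated SMADs are known to bind.
Id3: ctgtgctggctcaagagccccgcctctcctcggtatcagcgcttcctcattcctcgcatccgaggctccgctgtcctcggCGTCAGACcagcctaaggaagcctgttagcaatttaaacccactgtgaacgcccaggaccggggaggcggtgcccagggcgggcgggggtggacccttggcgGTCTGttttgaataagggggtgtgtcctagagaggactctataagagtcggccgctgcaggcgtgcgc
Id2: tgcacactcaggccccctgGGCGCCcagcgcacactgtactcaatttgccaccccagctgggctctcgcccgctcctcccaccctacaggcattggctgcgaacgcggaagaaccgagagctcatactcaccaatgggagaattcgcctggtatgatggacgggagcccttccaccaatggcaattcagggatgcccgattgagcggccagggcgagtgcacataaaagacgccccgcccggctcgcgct
In Id3, the half-site begins 170 bases upstream of the start and the SMAD box 167 bases upstream, so the pair overlaps, and a second SMAD box in the other orientation lies 68 bases upstream. The same overlapping stretch, CGTCAGAC on either strand, was present in 77 of 32851 promoters of the same length, or 0.234%. That stretch was read from the Id3 sequence itself, so its low share is no evidence that the arrangement is special. In Id2, GGCGCC begins 231 bases upstream. Taken singly and on both strands, TGACG was present in 17.8% of all these promoters, CAGAC in 42.2%, GGCGCC in 9.59% and the E box CACGTG in 6.02%. A match is a description of letters and says nothing on binding in these cells. The table held 10 promoters of 8 of the genes, with no entry for Id1 and Smad7. Among these, TGACG was present for 2 genes (Id3 and Smad1), GGCGCC for 3 (Bmpr1a, Bmpr2 and Id2), CAGAC for 2 (Id3, and Bmpr1b with both its promoters), and CACGTG for none.

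Bmpr1a and Smad3 were called in no comparison of times after hCG, and each of the other genes in at least 1. The share of all probe sets called in at least 1 of these comparisons was not computed, so this has no background to be read against. At 14 h against 0 h, 3 of the 11 probe sets were higher and 6 lower (limma, Benjamini-Hochberg adjusted over all 12422 probe sets). Of all tested probe sets, 28.8% were called in that comparison, 13.5% higher and 15.2% lower. At 3 h against 0 h, 3 probe sets were higher and 3 lower, where 42.8% of all probe sets were called, 17.4% higher and 25.4% lower. At 9 h against 0 h, 2 were higher and 4 lower, where 23% of all were called, 10.9% higher and 12.1% lower. Between 3 and 9 h, 0 were higher and 3 lower, where 19.4% of all were called, 7.59% higher and 11.8% lower. At an unadjusted p under 0.05 that interval had 1 higher and 3 lower, against 35% of all in either direction. Between 9 and 14 h, 2 were higher and 3 lower, where 20.1% of all were called, 10% higher and 10.1% lower. At an unadjusted p under 0.05 there were 6 in that interval, against 30.1% of all. The share called among these genes is therefore to be read against a background in which much of the array moved. The median log2 change of the 11 probe sets was 0.18 at 3 h, 0.25 at 9 h and -0.56 at 14 h, all against 0 h, beside -0.14, -0.08 and -0.06 for all tested probe sets. Time was tested with 1 EP2KO and 1 WT array per time, so a difference between genotypes in the response counts as error. The p-values measure only the spread between these single arrays, which may be technical. For each probe set, limma draws that spread toward a value shared by all probe sets (3 residual and 7.24 prior degrees of freedom). In bulk RNA, fewer cells of a type and less RNA per cell cannot be told apart.

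**Figure D1:**
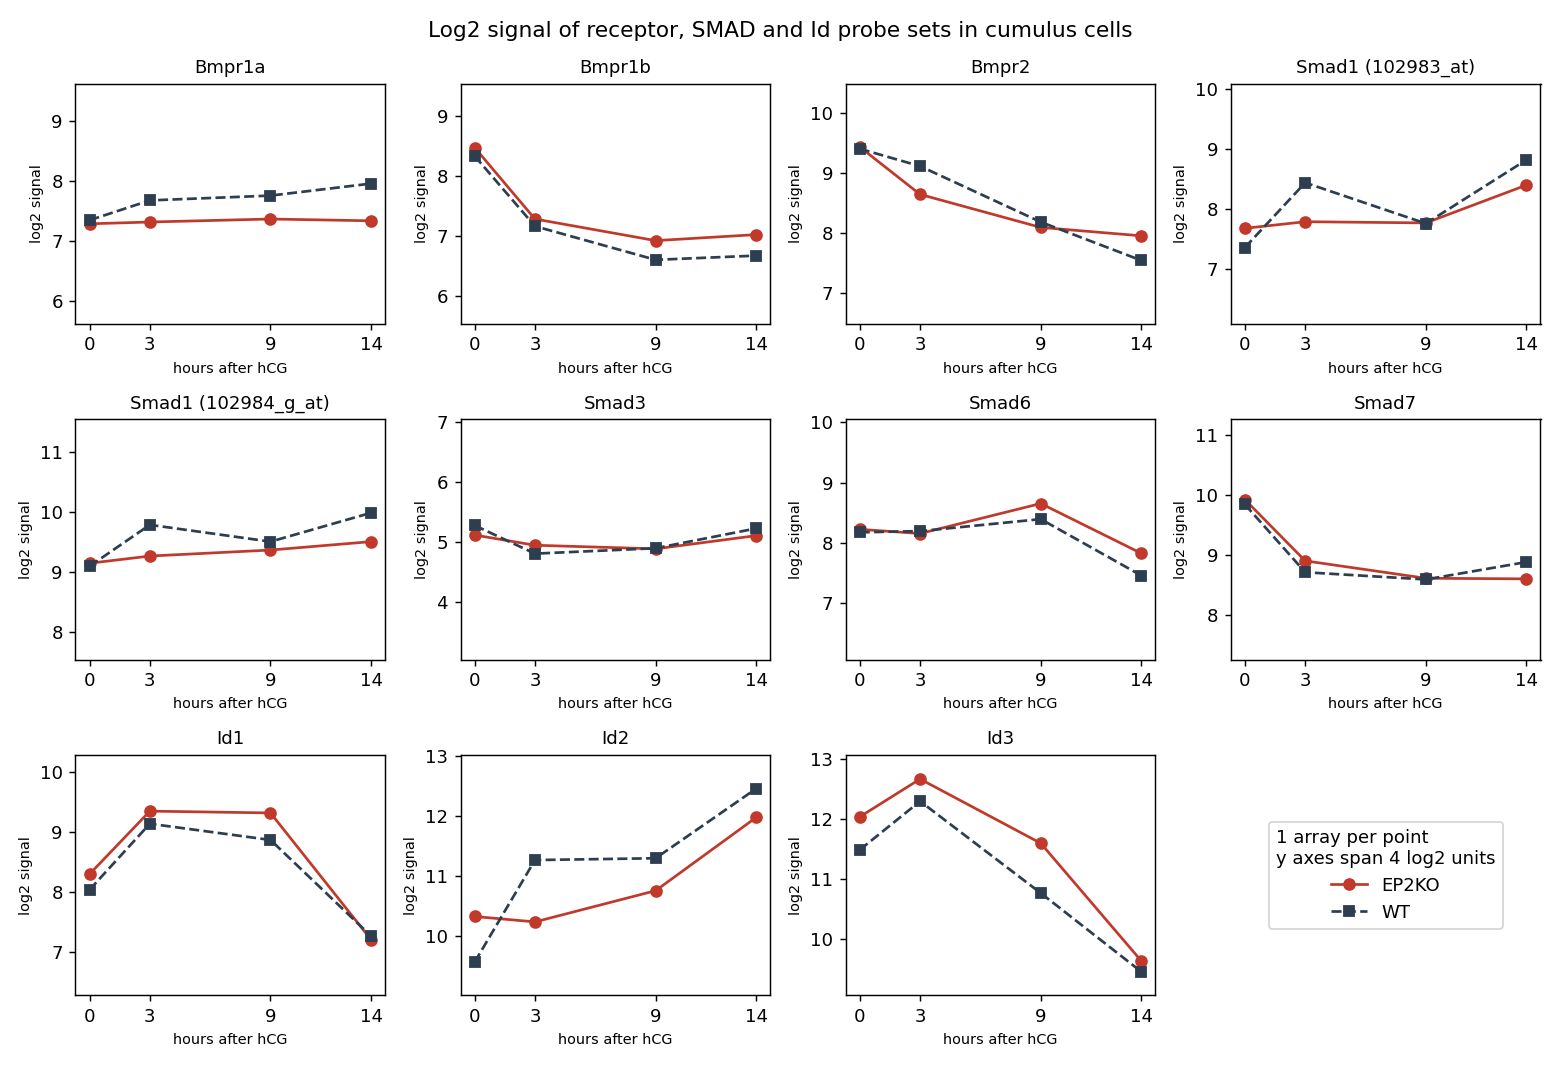
Log2 signal of each of the 11 probe sets (vertical axis) by hours after hCG (horizontal axis), with EP2KO and WT as separate lines of single arrays. Id3, Bmpr2, Bmpr1b and Smad7 end lower at 14 h than at 0 h in both genotypes, and Id2 ends higher.

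Id3 rose briefly after hCG and had lost most of its signal by ovulation. In EP2KO cells its log2 signal was 12.03 at 0 h, 12.66 at 3 h, 11.59 at 9 h and 9.63 at 14 h, and in WT cells it was 11.48, 12.29, 10.76 and 9.45 at the same times. Both 3 h arrays were thus above both 0 h arrays, and both 14 h arrays were far below all others. At 14 h against 0 h, Id3 fell by 2.21 on the log2 scale (SE 0.154, adjusted p = 3.48e-06, n = 2 arrays per time), a 4.64-fold lower signal, and this call held when any 1 of the 8 arrays was left out. The early rise of 0.72 at 3 h (SE 0.154, adjusted p = 0.0052) was less secure. It was no longer called without the WT array of 0 h (0.68, adjusted p = 0.0652), without the WT array of 3 h (0.65, adjusted p = 0.0585) or after quantile normalization (0.30, adjusted p = 0.114). Between 3 and 9 h, Id3 fell by 1.30 (SE 0.154, adjusted p = 0.00061). At 9 h against 0 h it was lower by a log2 change of -0.58 (SE 0.154, adjusted p = 0.0218), but the EP2KO array of 9 h lay above the WT array of 0 h, so the groups overlapped. That call was lost without the EP2KO array of 0 h (-0.54, adjusted p = 0.121), the WT array of 0 h (-0.63, adjusted p = 0.108) or the WT array of 9 h (-0.35, adjusted p = 0.297).

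Id1 rose with Id3 at 3 h, stayed up at 9 h and fell late. EP2KO cells had log2 signals of 8.30, 9.35, 9.32 and 7.21 at 0, 3, 9 and 14 h and WT cells had 8.04, 9.14, 8.87 and 7.27. The arrays of 3 and 9 h were above those of 0 h and the arrays of 14 h below them, with no overlap. The log2 change against 0 h was 1.08 at 3 h (SE 0.137, adjusted p = 4e-04), 0.93 at 9 h (SE 0.137, adjusted p = 0.00104) and -0.93 at 14 h (SE 0.137, adjusted p = 0.00054). Between 9 and 14 h, Id1 fell by 1.85 on the log2 scale (SE 0.137, adjusted p = 1.54e-05), a 3.62-fold lower signal. All 4 Id1 calls held with any 1 array left out. Between the same times Id3 fell by 1.64 (SE 0.154, adjusted p = 5.36e-05), a call that was lost when only the 4 arrays of 9 and 14 h were fitted (adjusted p = 0.0514).

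Id2 was higher at 14 h, when Id1 and Id3 were lower. Its log2 signal was 10.33, 10.24, 10.76 and 11.98 at 0, 3, 9 and 14 h in EP2KO cells and 9.57, 11.27, 11.30 and 12.46 in WT cells. The arrays of 14 h were the highest in both genotypes, while at 3 h the WT array was well above its 0 h array and the EP2KO array was not. At 14 h against 0 h, Id2 rose by a log2 change of 2.27 (SE 0.312, adjusted p = 0.000342), a 4.82-fold higher signal. The call held with any 1 array left out, but its size depended on the arrays of 0 h, being 2.99 without that of EP2KO and 1.55 without that of WT. The change of 0.81 at 3 h did not pass (SE 0.312, adjusted p = 0.0598). It passed without the EP2KO array of 0 h (1.53, adjusted p = 0.00278) or of 3 h (1.28, adjusted p = 0.0188), and also without either array of 9 h (adjusted p = 0.0416 each). It shrank to 0.08 without the WT array of 0 h (adjusted p = 0.794) and to 0.33 without that of 3 h (adjusted p = 0.516). At 9 h against 0 h the log2 change was 1.08 (SE 0.312, adjusted p = 0.0313). It was 1.80 without the EP2KO array of 0 h (adjusted p = 0.0015), but no longer called without the WT array of 0 h (0.36, adjusted p = 0.316) or of 9 h (0.94, adjusted p = 0.133), with a trended robust prior (adjusted p = 0.0773) or with only the 4 arrays of these times (adjusted p = 0.0808). Between 9 and 14 h it was 1.19 (SE 0.312, adjusted p = 0.0212). That step was lost without the EP2KO array of 9 h (1.04, adjusted p = 0.102), the EP2KO array of 14 h (1.29, adjusted p = 0.0577) or the WT array of 14 h (1.08, adjusted p = 0.111), and with the trended robust prior (adjusted p = 0.0656).

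**Figure D2:**
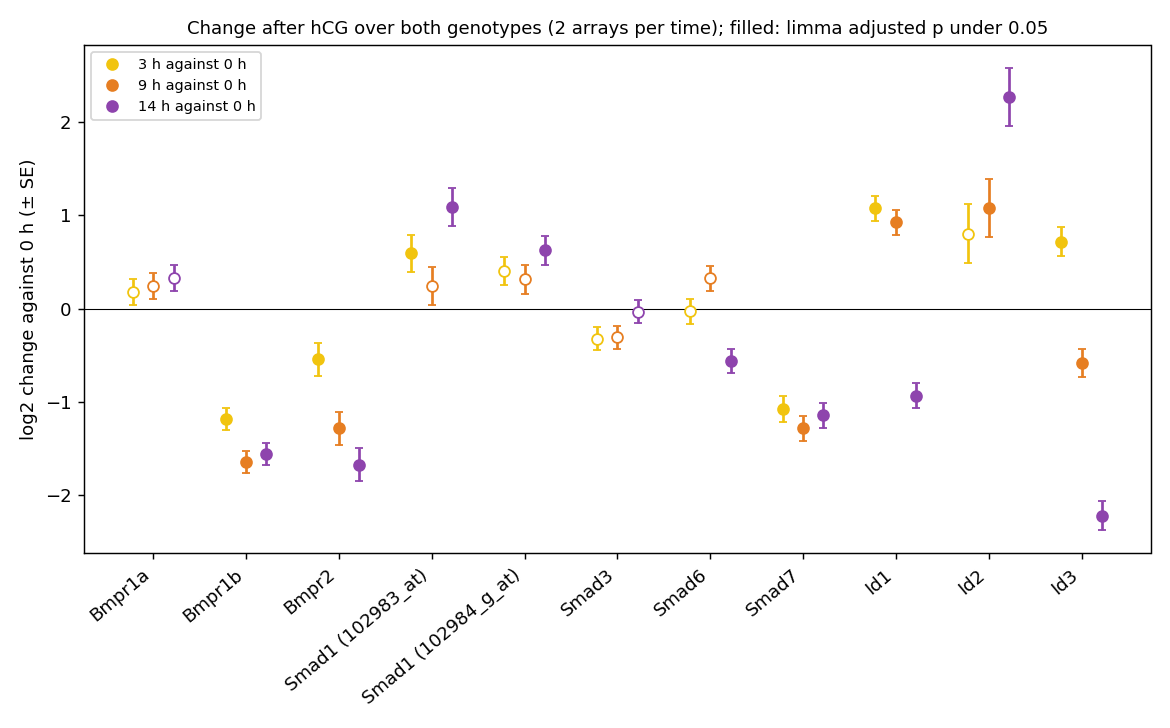
Log2 change with its standard error (limma, n = 2 arrays per time) of each probe set at 3, 9 and 14 h, each against 0 h. Id3 at -2.21 and Id2 at 2.27 are the largest changes at 14 h, and Id1 changes sign between 9 h and 14 h.

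Of the receptors, Bmpr1b and Bmpr2 fell after hCG and Bmpr1a did not pass the test at any time with all 8 arrays. Bmpr1b encodes a type 1 BMP receptor whose loss in female mice impairs cumulus expansion. The EP2KO arrays read 8.48, 7.29, 6.93 and 7.03 on the log2 scale at 0, 3, 9 and 14 h, and the WT arrays 8.34, 7.17, 6.61 and 6.68. Both arrays of 0 h were more than 1 log2 unit above every later array. The log2 change against 0 h was -1.18 at 3 h (SE 0.12, adjusted p = 0.000127), -1.64 at 9 h (SE 0.12, adjusted p = 1.45e-05) and -1.55 at 14 h (SE 0.12, adjusted p = 7.53e-06). These 3 calls held with any 1 array left out. The step between 3 and 9 h was smaller (-0.46, SE 0.12, adjusted p = 0.0247) and was lost without the EP2KO array of 9 h (adjusted p = 0.0918), the WT array of 3 h (adjusted p = 0.202) or the WT array of 9 h (adjusted p = 0.307), and with only the 4 arrays of these times (adjusted p = 0.0689).

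Bmpr2, the type 2 receptor shared by BMPs, GDF9 and BMP15, fell in steps. It measured 9.43, 8.64, 8.09 and 7.95 on the log2 scale in EP2KO cells and 9.40, 9.11, 8.18 and 7.54 in WT cells at the same 4 times. Signal was lower at each later time in both genotypes, with no overlap between any time and 0 h. The log2 change against 0 h was -1.28 at 9 h (SE 0.178, adjusted p = 0.000707) and -1.67 at 14 h (SE 0.178, adjusted p = 6.38e-05), and both held with any 1 array left out. At 3 h it was -0.54 (SE 0.178, adjusted p = 0.0335). That call was lost without the EP2KO array of 3 h (-0.25, adjusted p = 0.299) or either array of 0 h (adjusted p = 0.142 each), and was -0.83 without the WT array of 3 h. It was also lost with each array centred on its median (adjusted p = 0.0758) and with only the 4 arrays of 0 and 3 h (adjusted p = 0.0588). Between 3 and 9 h Bmpr2 was lower by a log2 change of -0.74 (SE 0.178, adjusted p = 0.0173). This step was lost without the EP2KO array of 9 h (adjusted p = 0.0757), the WT array of 3 h (-0.45, adjusted p = 0.218) or the WT array of 9 h (adjusted p = 0.0922). The change of -0.39 between 9 and 14 h (SE 0.178, adjusted p = 0.172) passed without the EP2KO array of 14 h (-0.68, adjusted p = 0.0317).

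Bmpr1a encodes the other type 1 BMP receptor. Across the 4 times in order, log2 signal was 7.28, 7.31, 7.36 and 7.33 in EP2KO cells and 7.34, 7.67, 7.75 and 7.95 in WT cells. The EP2KO arrays spanned 0.08 log2 units while the WT arrays were highest at 14 h. The log2 change against 0 h was 0.18, 0.25 and 0.33 at 3, 9 and 14 h (SE 0.142 each, adjusted p = 0.321, 0.245 and 0.113). The 95% interval at 14 h ran between 0.01 and 0.65. That change was called without the EP2KO array of 0 h (0.53, adjusted p = 0.0452). It was 0.51 without the EP2KO array of 14 h (adjusted p = 0.0583), 0.13 without the WT array of 0 h (adjusted p = 0.636) and 0.15 without the WT array of 14 h (adjusted p = 0.611).

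Smad7 encodes an inhibitory SMAD that blocks both BMP and TGF-beta receptors and is itself induced by them. It fell at once and stayed low. In time order, log2 signal was 9.92, 8.90, 8.61 and 8.60 in EP2KO cells and 9.84, 8.71, 8.59 and 8.88 in WT cells. Every later array was over 0.9 log2 units below both arrays of 0 h. The log2 change against 0 h was -1.07 at 3 h (SE 0.135, adjusted p = 0.000362), -1.28 at 9 h (SE 0.135, adjusted p = 0.000145) and -1.14 at 14 h (SE 0.135, adjusted p = 0.000132), and all 3 calls held with any 1 array left out.

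Smad6, the inhibitory SMAD that acts chiefly on BMP receptors, was lower only at ovulation. Log2 signals in time order were 8.22, 8.15, 8.65 and 7.82 in EP2KO cells and 8.17, 8.19, 8.39 and 7.45 in WT cells. Both arrays of 9 h were the highest and both of 14 h the lowest of their genotype. Between 9 and 14 h Smad6 fell by 0.89 (SE 0.133, adjusted p = 0.000886), which held with any 1 array left out. Against 0 h, the log2 change at 14 h was -0.56 (SE 0.133, adjusted p = 0.00928) and was lost without the WT array of 0 h (-0.49, adjusted p = 0.0925) or of 14 h (-0.42, adjusted p = 0.103). The changes at 3 h (-0.03, adjusted p = 0.893) and 9 h (0.33, adjusted p = 0.106) did not pass.

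Smad1 encodes the mediator that BMP type 1 receptors phosphorylate, and both its probe sets were designed from the same transcript record. The first, 102983_at, had log2 signals of 7.68, 7.79, 7.77 and 8.40 in EP2KO cells and 7.36, 8.44, 7.76 and 8.82 in WT cells. The second, 102984_g_at, had 9.15, 9.27, 9.37 and 9.51 in EP2KO cells and 9.10, 9.79, 9.51 and 9.99 in WT cells. On both, the arrays of 14 h were above those of 0 h, and the WT array of 3 h stood out from its EP2KO counterpart. At 14 h against 0 h the log2 change was 1.09 on the first probe set (SE 0.2, adjusted p = 0.00213) and 0.63 on the second (SE 0.153, adjusted p = 0.0111). The second call was lost without the WT array of 0 h (0.41, adjusted p = 0.15) or of 14 h (0.49, adjusted p = 0.107). At 3 h against 0 h only the first passed (0.60, SE 0.2, adjusted p = 0.0358, against 0.41 and adjusted p = 0.0547 on the second). The second passed with each array centred on its median (adjusted p = 0.0452), without either or, in a fit added after the data were seen, both arrays of 14 h (adjusted p = 0.0479 each) and without the EP2KO array of 0 h (0.62, adjusted p = 0.0268) or of 3 h (0.57, adjusted p = 0.0366). It was 0.19 without the WT array of 0 h (adjusted p = 0.459) and 0.24 without that of 3 h (adjusted p = 0.379). The first call was lost without the WT array of 0 h (0.26, adjusted p = 0.41), the WT array of 3 h (0.29, adjusted p = 0.37) or with only the 4 arrays of 0 and 3 h (adjusted p = 0.0942), and it was 0.93 and 0.91 without the EP2KO array of 0 h or 3 h. Between 9 and 14 h the first probe set was higher by 0.84 (SE 0.2, adjusted p = 0.0125), but not without the WT array of 9 h (adjusted p = 0.0859) or of 14 h (adjusted p = 0.103), nor with only the 4 arrays of these times (adjusted p = 0.0756).

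Smad3, the mediator downstream of GDF9 and TGF-beta type 1 receptors, was dim. Its log2 signal was 5.11, 4.94, 4.88 and 5.10 in EP2KO cells and 5.27, 4.80, 4.89 and 5.22 in WT cells, in time order. Its mean stood at percentile 8.2 of the means of all tested probe sets. No comparison passed, the nearest being 3 h against 0 h with a log2 change of -0.32 (SE 0.123, adjusted p = 0.0574), which passed without the EP2KO array of 3 h (-0.44, adjusted p = 0.0426), with a trended robust prior (adjusted p = 0.0377) and with the probe sets of each gene averaged (adjusted p = 0.0491).

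The check of the knockout was Ptger2, whose log2 signal was 4.57, 4.24, 4.69 and 4.51 in EP2KO cells and 4.95, 5.97, 5.37 and 5.33 in WT cells, in time order. Each EP2KO array was below every WT array, but the labels do not say where the probe set lies relative to the deleted part. The probe set was dim, with its mean at percentile 7.58 of the means of all tested probe sets. EP2KO and WT were compared over the 4 times, each holding 1 array of either genotype. No probe set on the array was called (limma, adjusted p, 0 of 12422, 0%), so neither Ptger2 (adjusted p = 0.528) nor any of these 11 was. At an unadjusted p under 0.05, 642 probe sets (5.17%) and 4 of the 11 were found. No single probe set of these genes can therefore be said to differ by genotype, and the values that follow are given as measured.

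Id3 had the lowest unadjusted p of the 10 genes in that comparison. It was higher in EP2KO cells at each of the 4 times, by 0.55, 0.37, 0.83 and 0.18 log2 units at 0, 3, 9 and 14 h, with a mean difference of 0.48 (95% interval 0.24 to 0.72, unadjusted p = 0.00118, adjusted p = 0.606). Bmpr1a was lower in EP2KO cells at each time, by 0.62 log2 units at 14 h, with a mean difference of -0.36 (95% interval -0.58 to -0.13, unadjusted p = 0.00496, adjusted p = 0.87). Bmpr1b was higher in EP2KO cells at each time, with a mean difference of 0.23 (95% interval 0.04 to 0.42, unadjusted p = 0.0207, adjusted p = 0.939). The remaining probe set was 102984_g_at of Smad1, with a mean difference of -0.27 (95% interval -0.51 to -0.03, unadjusted p = 0.03, adjusted p = 0.946). The 95% interval of the mean difference was -0.31 to 0.25 for Bmpr2, -0.23 to 0.16 for Smad3 and -0.21 to 0.21 for Smad7, which does not show that the genotypes were alike.

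**Figure D3:**
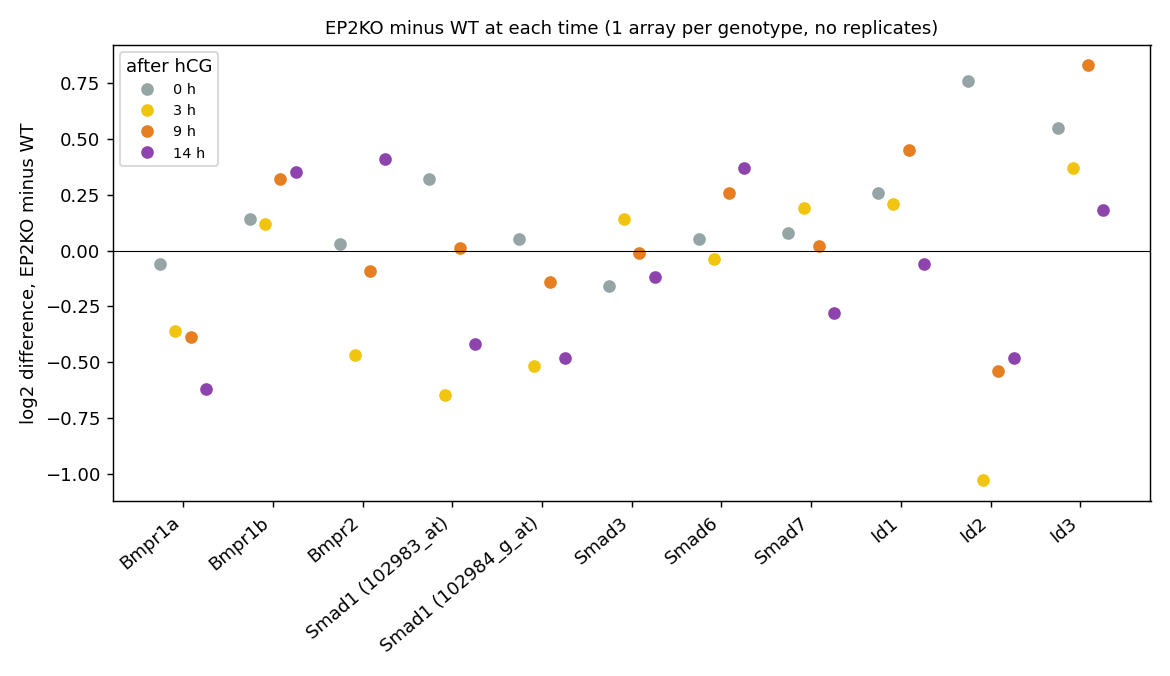
Difference in log2 signal, EP2KO minus WT, for each probe set at 0, 3, 9 and 14 h, each from 1 array per genotype. Id3 lies above 0 and Bmpr1a below 0 at every time, and Id2 has both the highest value at 0 h (0.76) and the lowest at 3 h (-1.03).

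The largest difference at a single time was that of Id2 at 3 h. Id2 was higher in EP2KO cells at 0 h by 0.76 log2 units, lower by 1.03 at 3 h, lower by 0.54 at 9 h and lower by 0.48 at 14 h. At 3 h, Id2 was the only one of the 11 probe sets past 1 log2 unit in size, where 0.467% of all probe sets were, and 3 of the 11 were past 0.5, where 4.09% of all were. The other members of these 3 were the Smad1 probe sets, at -0.65 and -0.52. None of the 11 was past 1 log2 unit at 0, 9 or 14 h, where 0.0403%, 0.129% and 0.217% of all were. Past 0.5 there were 2 of the 11 at 0 h (Id2 and Id3, background 2.69%), 2 at 9 h (Id2 and Id3, background 2.49%) and 1 at 14 h (Bmpr1a, background 3.65%). Each such value compares 1 library with another and has no replicate check.

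Whether the genotype difference at a time departed from that at the others was fitted as an interaction. At 14 h, 0.0805% of all probe sets were called, 0.0644% higher and 0.0161% lower, and 0 of the 11. At an unadjusted p under 0.05 there were 6.96% of all and 1 of the 11. That one was Bmpr2, whose EP2KO minus WT difference was 0.59 higher at 14 h than at the earlier times (95% interval 0.07 to 1.11, unadjusted p = 0.0303, adjusted p = 0.652). The same fit at 3 h and at 9 h was added after the data were seen and called no probe set at either time (0% each). At 3 h, 891 probe sets (7.17%) and 2 of the 11 had an unadjusted p under 0.05. These were Bmpr2 (-0.59, 95% interval -1.11 to -0.07, adjusted p = 0.659) and the Smad1 probe set 102983_at (-0.62, 95% interval -1.23 to -0.01, adjusted p = 0.689). For Id2 the departure at 3 h was -0.94 (95% interval -1.93 to 0.04, unadjusted p = 0.0583, adjusted p = 0.7). At 9 h, 131 probe sets (1.05%) and 0 of the 11 had an unadjusted p under 0.05.

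The rest of the pathway was followed through lists of ligands, receptors, SMADs with their regulators, extracellular antagonists, partners of Id proteins and response genes, of which 105 of 142 symbols were measured. At 14 h against 0 h, 18 of the 105 were higher and 11 lower, at 9 h 9 were higher and 14 lower, and at 3 h 14 were higher and 23 lower. These are 27.6%, 21.9% and 35.2% of the 105, where 28.8%, 23% and 42.8% of all probe sets were called, so the lists as a whole were near or below the background. Of the 89 calls in these lists, 41 held with any 1 of the 8 arrays left out. The called examples given here are among those 41, except where stated.

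Among 27 measured ligands of 34, 3 were higher and 4 lower at 14 h (25.9%, where 28.8% of all probe sets were called). Bmp6, a BMP made by granulosa cells and oocytes, rose at 3 h (1.22, adjusted p = 0.000152) and at 14 h (1.33). Its log2 signal was 8.73, 9.79, 9.00 and 10.05 in EP2KO cells and 8.68, 10.06, 8.88 and 10.02 in WT cells in time order, so the arrays of 9 h were close to those of 0 h in both genotypes. Of 5 measured inhibin and activin subunits, 3 were lower at 14 h, with log2 changes of -5.42 for Inhbb, -2.14 for Inhba and -1.77 for Inha. Inhbc (-0.13, adjusted p = 0.498) and Inhbe (-0.26, adjusted p = 0.254) were not called at 14 h. Tgfb3, a TGF-beta ligand, was at -0.77 at 9 h and -0.60 at 14 h. Tgfb1, another TGF-beta ligand, was higher at 14 h (0.545, adjusted p = 0.00736). Of the oocyte ligands, Gdf9 was not called at any time against 0 h. Bmp15, which was dim (percentile 16.1), was lower at 3 h (-0.675, adjusted p = 0.00839). Neither the Tgfb1 nor the Bmp15 call is among the 41 that held with any 1 array left out.

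Among 10 measured receptors of 17, 2 were lower at 3 h, 1 was higher and 1 lower at 9 h, and 1 was lower at 14 h. These are 20%, 20% and 10% of the list, where 42.8%, 23% and 28.8% of all were called. Acvr1b, a type 1 activin receptor, was lower at 3 h (-0.58, adjusted p = 0.00391). Tgfbr1 and Tgfbr2, the TGF-beta receptors, were called at none of the 3 times (adjusted p between 0.0583 and 0.962). Both were dim, with means at percentiles 15.2 and 5.06 of all tested probe sets, so this does not show that they were unchanged. Among 17 measured SMADs and regulators of 25, 4 were higher and 2 lower at 14 h (35.3%, against 28.8% of all). Fkbp1a, whose product holds type 1 receptors inactive, rose by 1.25, and Ctdsp2, which encodes a SMAD phosphatase, by 0.88. Map3k7, the TAK1 kinase of the SMAD-independent branch, was at -0.81. Smad2, Smad4 and Smad5 were called at none of the 3 times.

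Among 15 measured antagonists and binding proteins of 21, 2 were higher and 2 lower at 14 h (26.7%, against 28.8% of all). Fst, follistatin, which traps activin, was at -0.96 at 9 h and -1.49 at 14 h. Ltbp1, which tethers latent TGF-beta to the matrix, rose by 2.14 at 14 h (adjusted p = 1.7e-06), and Fstl1, a secreted follistatin-like protein, by 0.80. Among 10 partners of Id proteins and Id4, 1 was higher and 1 lower at 14 h (20%, against 28.8% of all). Tcf12, an E protein that Id proteins bind, rose by 1.15 (adjusted p = 0.00012), and Ets2, an ETS factor, was at -1.11. Id4 and the E proteins Tcf3 and Tcf4 were called at none of the 3 times.

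**Figure D4:**
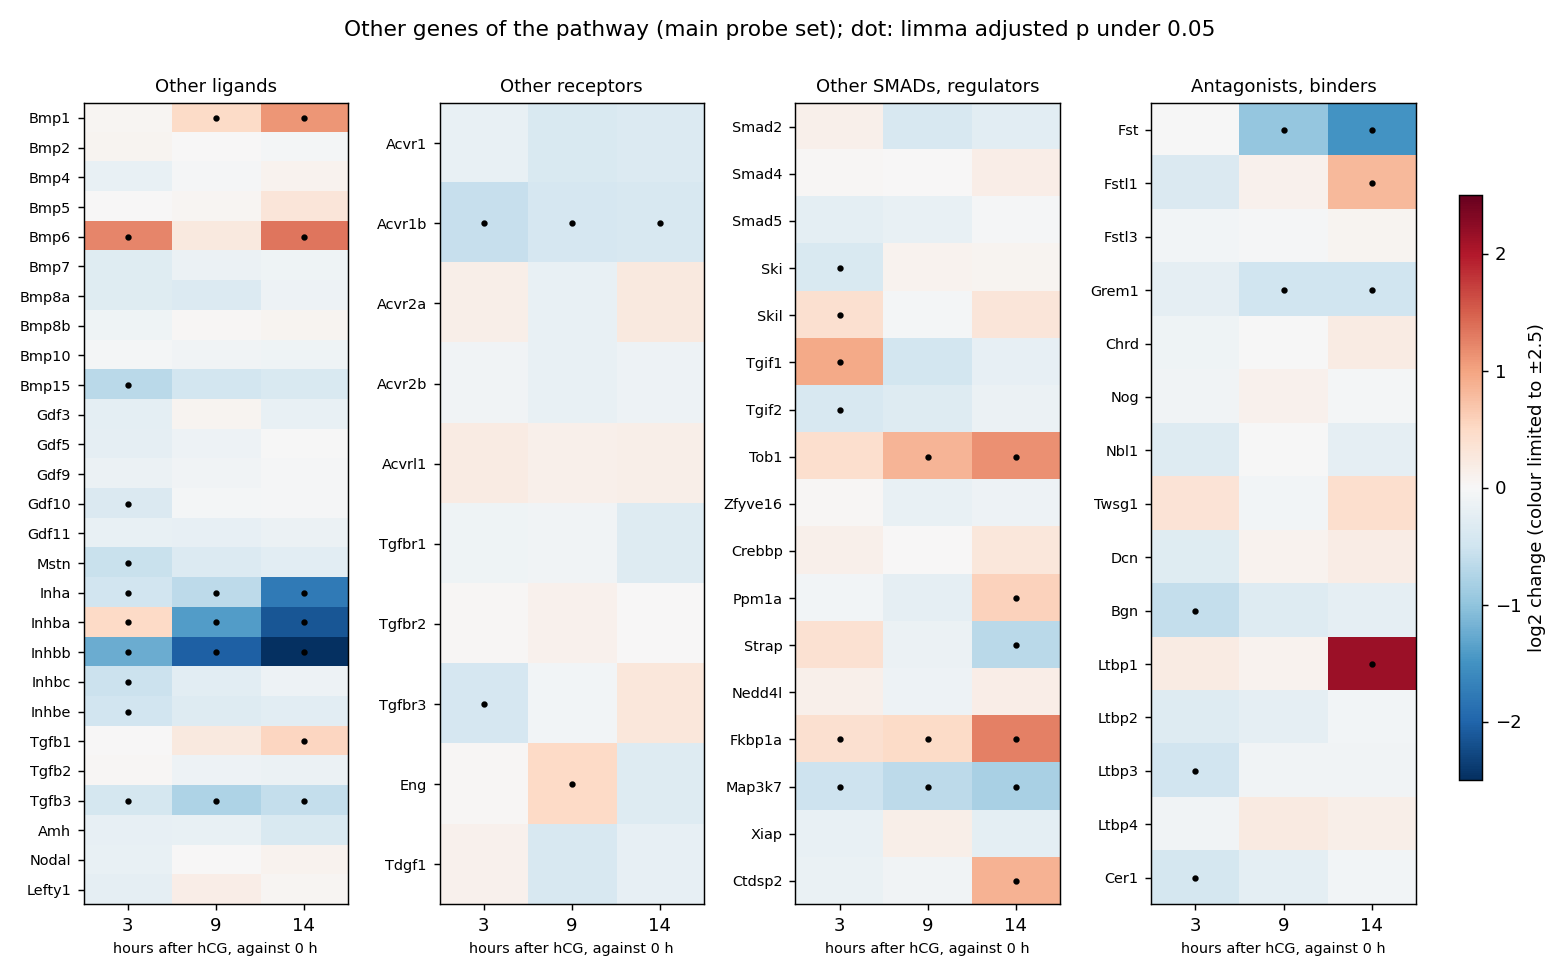
Log2 change at 3, 9 and 14 h against 0 h (columns) of the measured ligands, receptors, SMADs with regulators, and antagonists other than the 10 genes (rows), in colour limited to 2.5 either way, with a dot where the limma adjusted p was under 0.05. Inhbb at 14 h (-5.42) lies beyond the colour limit, and Bmp6 is dotted at 3 h and 14 h but not at 9 h.

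Among 12 measured cumulus genes of 17 known to respond to GDF9 or BMP15, 5 were higher and 0 lower at 3 h, 4 higher and 5 lower at 9 h, and 3 higher and 2 lower at 14 h. These are 41.7%, 75% and 41.7% of the list, where 42.8%, 23% and 28.8% of all were called. Has2, the hyaluronan synthase of the expanded matrix, rose by 4.08 at 3 h, stood at 1.34 at 9 h and was not called at 14 h (0.12, adjusted p = 0.658). Ptgs2, which makes the prostaglandin precursor, was higher by 6.99, 5.45 and 5.13 at 3, 9 and 14 h. Ptx3 and Tnfaip6, which crosslink hyaluronan, were higher by 4.42 and 3.93 at 3 h and by 1.85 and 3.72 at 14 h. Pfkp and Pkm, enzymes of glycolysis, were lower at 9 h, at -1.31 and -1.03, and neither was called at 14 h. Tpi1 of the same list was also lower at 9 h, a call lost with some single arrays left out. Ldha and Aldoa were not called at 9 h. Among 16 measured genes of 20 known to respond to TGF-beta or SMAD signalling, 4 were higher and 5 lower at 3 h, 1 higher and 1 lower at 9 h, and 5 higher and 0 lower at 14 h. These are 56.2%, 12.5% and 31.2% of the list, beside the same shares of all probe sets. Junb, an AP-1 factor, rose by 2.08 at 3 h, and Tgfbi and Fn1, both matrix proteins, by 1.90 and 1.98 at 14 h. Others of the list were lower at 3 h. With 1 array left out, the change ran between -1.15 and -0.62 for Col1a2. For Gata3, which was dim (percentile 9.06), it ran between -0.71 and -0.61.

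Some markers of other cells and the 3' to 5' ratio of Gapdh were higher on the 14 h arrays. The summed linear signal of 10 of 10 oviduct epithelium markers was 6541 in EP2KO and 5436 in WT at 14 h, against 2850 to 3161 on the 6 earlier arrays, and that of 15 of 17 leukocyte markers was 5702 and 4243, against 2600 to 3635. Of the oviduct markers, 4 were called higher, 1 lower and 5 neither at 14 h against 0 h, and without Ovgp1 the other 9 summed to 3724 and 3195 at 14 h, against 2682 to 2944 before. Of the leukocyte markers, 6 were higher and 9 were not called. Ovgp1, the oviduct glycoprotein, was at 11.46 and 11.13 on the log2 scale at 14 h, against 7.05 to 7.76 before. Endothelial markers (12 of 15) summed to 2999 and 3169 at 14 h, within their earlier range of 2685 to 3389, as did oocyte (11 of 16) and theca and stroma markers (13 of 13). Cumulus and granulosa markers (9 of 12) summed to 10859 and 12886 at 14 h, against 21414 to 50471 before. All 9 had a negative change at 14 h against 0 h, and 8 of the 9 were called lower, all but Amh (-0.375). Of that list, Amh, Inha, Inhba, Inhbb and Kitl also stand on the pathway lists. Erythroid markers (4 of 9) ranged between 1528 and 12517, the highest being the WT array of 9 h. The signal of the 3' Gapdh control over the 5' one was 2.82 and 2.87 log2 units in EP2KO and WT cells at 14 h, against 0.80 to 1.86 before. For the Actb control it was 1.37 and 1.61 at 14 h, against 0.69 to 1.54 before, so the EP2KO array of 14 h lay within the earlier range. No marker is listed at 0, since the signals are on a log scale with no zeros. The part of these in the late fall of Id1, Id3 and Smad6 and the late rise of Id2 and Smad1 was not tested.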

How the data were processed

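RNA of mouse cumulus cells was amplified and hybridised to Affymetrix MG_U74Av2 arrays. The authors deposited log2 signals, made with RMA (robust multi-array average) per the submitters' processing notes. The version and genome build are not given in the sources used here. Values are relative within a probe set. Array medians were between 7.79 and 7.89 and SDs between 1.77 and 1.99, so the deposited arrays did not share 1 distribution. The values were used as deposited. Of 12488 probe sets, 66 controls were left out. Names came from the platform annotation, with 10833 probe sets on 1 symbol, 396 on several and 1193 on none. limma 3.58.1 (R 4.3.3) fitted time and genotype to all 8 arrays, with Benjamini-Hochberg adjustment over 12422 probe sets and a threshold of 0.05. Interactions tested departures of genotype at single times. The fitting code was run on simulated data with added changes and a common spread for all probe sets. That checks the code and not how well these arrays meet the model. Precision is limited by 1 array per genotype and time, with a median SE of 0.13 (log2) for time contrasts. Members, lists, markers and motifs were chosen with earlier results of these data known. Every probe set of a member was named, and other genes only from the lists or by likeness of pattern. Alternatives were median centring, quantile normalization, a filter on dim probe sets, a trended robust prior, fewer arrays, averaged probe sets and leaving out each array. No cells, mice or arrays other than these 8 were analysed here.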

Additional observations from a re-analysis of the deposited data

Results flagged for a closer look

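For 6 probe sets, the change between neighbouring times was opposite in sign in EP2KO and WT cells. Each value rests on 1 array per genotype and time, and the difference between genotypes was not tested at this step. Id2 changed by -0.09 in EP2KO cells and 1.70 in WT cells between 0 and 3 h, a difference of -1.79. Smad6 changed by -0.07 in EP2KO cells and 0.02 in WT cells over the same interval, a difference of -0.09. Between 3 and 9 h, the Smad1 probe set 102984_g_at changed by 0.10 in EP2KO cells and -0.28 in WT cells, a difference of 0.38. Smad3 changed by -0.06 in EP2KO cells and 0.09 in WT cells in that interval, a difference of -0.15. Between 9 and 14 h, Bmpr1a changed by -0.03 in EP2KO cells and 0.20 in WT cells, a difference of -0.23. Smad7 changed by -0.01 in EP2KO cells and 0.29 in WT cells in the last interval, a difference of -0.30. Apart from Id2 and Smad1, these differences were no larger than 0.30 log2 units. The standard error of a time contrast was between 0.12 and 0.14 for those genes. That error is for means of 2 arrays per time, so it understates the error of these differences between single arrays.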

How the results depend on the processing

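Animals could not be paired, because each group has 1 array and no label links animals across groups. Arrays were matched only in the fit, where genotypes were compared within times and times within genotypes. Over the 11 probe sets, 1015 of the recomputed values kept their direction and side of the threshold, 37 lost and 15 gained a call, and 33 changed sign, none of them a called value. The count of these probe sets higher at 9 h against 0 h (2) and at 14 h against 9 h (2) was 1 each with the trended robust prior and with only the 4 arrays compared. Leaving out 1 array each, it ran between 1 and 5 for higher at 3 h against 0 h, 1 and 2 for higher at 9 h against 0 h, 1 and 3 for lower at 9 h against 3 h, and 0 and 2 for higher at 14 h against 9 h. The cause was not tested. Signs turned, on the log2 scale, with median centring and quantile normalization for Smad6 at 3 h against 0 h (0.05 and 0.0225), Smad3 at 9 h against 3 h (-0.025 and -0.0725) and Smad7 in EP2KO against WT (0 and -0.03), and with quantile normalization for Smad3 at 14 h against 0 h (0.0631) and Smad1 102984_g_at at 9 h against 3 h (0.0178). Leave-one-out ranges that crossed 0 were -0.0183 to 0.3783 (Bmpr1a, 3 h against 0 h), -0.1583 to 0.1083 (Smad6, 3 h against 0 h), -0.0917 to 0.5817 (Smad1 102983_at, 9 h against 0 h) and -0.1117 to 0.0517 (Smad3, 14 h against 0 h). At 9 h against 3 h they were -0.1967 to 0.7467 (Id2), -0.1033 to 0.1333 (Smad3), -0.255 to 0.075 (Smad1 102984_g_at) and -0.3067 to 0.0067 (Id1). At 14 h against 9 h they were -0.09 to 0.26 (Bmpr1a) and -0.0483 to 0.3283 (Smad7), in EP2KO against WT -0.06 to 0.0967 (Smad7), -0.0967 to 0.0033 (Smad3) and -0.1767 to 0.1167 (Bmpr2), and for the departure at 14 h -0.59 to 0.305 (Id2). Over all probe sets, 5313 calls at 3 h against 0 h became 3482 with the lowest 40% left out, 2888 with only the 4 arrays compared and 3435 with probe sets averaged per gene. The 2852 at 9 h against 0 h became 1861 with averaging, the 2412 at 9 h against 3 h became 1257 with only the 4 arrays and 1592 with averaging, and the 2496 at 14 h against 9 h became 699 with only the 4 arrays. The 10 of the departure at 14 h became 0 with median centring, the filter and averaging and 17 with the trended robust prior, which also gave 8 at 3 h and 1 at 9 h, where none was called otherwise except 1 with the filter at 9 h and up to 4 without an array of 3 h. EP2KO against WT gave 1 without the 14 h arrays. Leaving out 1 array each, the counts ran between 1897 and 5471 (3 h against 0 h), 1225 and 3036 (9 h against 0 h), 2289 and 3809 (14 h against 0 h), 489 and 2605 (9 h against 3 h) and 1286 and 2668 (14 h against 9 h), and the departure at 14 h had 0 each time.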

Other observations

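The genes whose pattern over the 8 arrays was most like that of a member are given by Pearson's r, as a description with no test, among 1420 candidates with an SD of at least 0.5. The arrays share the same 4 times, and any gene with a like time course scores high. Nearest to Bmpr1b were Cbx2 (r = 0.9882), Fshr (0.9769) and Psma4 (0.9711). Cbx2 encodes a Polycomb protein and Fshr the receptor for follicle-stimulating hormone. Both were also nearest to Smad7 (0.9636 and 0.9615), followed by Abcd2 (0.9614). Fshr had log2 signals of 11.11, 9.71, 9.24 and 9.19 at 0, 3, 9 and 14 h in EP2KO cells and 10.78, 9.69, 9.27 and 9.19 in WT cells. Nearest to Bmpr2 were Myo10 (0.9826), Drd4 (0.9754) and D17H6S56E-5 (0.973). Nearest to Id1 were Mrps26 (0.9977), Adgra3 (0.9873) and Rtraf (0.9868), and nearest to Id3 were Lage3 (0.995), Ndufs3 (0.9945) and Dap (0.9936). Nearest to Id2 were Actn1 (0.9716), Ppp3ca (0.9699) and Atp6v1a (0.9637). With only 3 genes kept per member, Id1, Id2 and Id3 shared none with one another.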
